A study of Mus musculus with 19 samples.

Results

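The transforming growth factor beta (TGF-beta) ligands, their receptors and regulators were followed through 10 genes chosen by symbol: Tgfb1, Tgfb2, Tgfb3, Tgfbr1, Tgfbr2, Tgfbr3, Smad3, Smad7, Skil and Ltbp1. All 10 were matched to a row of the 55487 genes in the deposited count table, and all 10 passed the filter on low counts. RNASeq was performed on hepatic stellate cells (HSCs) of healthy, untreated Balb/c mice, all male and 23-24 weeks old, and the cells were sorted by ultraviolet positivity. A fraction was collected uncultured (0 h, 2 samples), and the other cells were kept on collagen-coated plates in medium with 10% serum for 3, 6, 12, 18 or 96 h (3 samples each) or for 24 h (2 samples). Fresh medium was given at 3 h and at 24 h, the labels give no treatment, and every sample combined 2 technical repeats. The samples carry the numbers M1, M2 and M3, of which M1 and M3 share an isolation date and M2 has another, and the labels do not say whether a number stands for an animal or a pool. The uncultured samples are M2 and M3, and those of 24 h are M1 and M2. The cultures differ from uncultured HSCs in time, plating and serum together, and these cannot be told apart.

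TGF-beta ligands are secreted in a latent complex with their own propeptide, which latent TGF-beta binding proteins such as the product of Ltbp1 tether to the extracellular matrix. Released ligand binds the type II receptor TGFBR2, which recruits and phosphorylates the type I receptor TGFBR1, while the co-receptor betaglycan, encoded by Tgfbr3, presents ligand and binds TGF-beta 2 in particular. TGFBR1 then phosphorylates SMAD2 and SMAD3, whereas SMAD7 and SnoN, the product of Skil, restrain the signal and are themselves target genes of it. In the liver the pathway is known as a driver of HSC activation and matrix production.

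Levels are given as CPM, counts scaled to a common library size with factors from the trimmed mean of M values (TMM), and were not compared between genes. Total counts lay between 2073171 and 7690892 per sample with a median of 4954915, and 3 counts, taken as the smallest countable level, corresponded to between 0.390 and 1.45 CPM. Errors of levels are SDs over samples, and errors of log2 fold changes are standard errors (SE). All 10 HSC markers listed (Lrat, Reln, Rgs5, Ngfr and others) were detected at 0 h, with a summed level of 30572 to 35332 CPM, of which Dcn held 19179 CPM on average, and the sum was 2663 to 3054 CPM at 96 h. RNA of other liver cells was present at the start. Hepatocyte markers summed to 3522 and 7546 CPM at 0 h and to at most 159 CPM at 12 h. Kupffer cell markers summed to 392 and 432 CPM at 0 h and to at most 45.2 CPM at 12 h, where Clec4f, Vsig4, C1qa, C1qb, C1qc and Adgre1 were at 0. Sinusoidal endothelial markers stood apart in M1, with 2638 CPM at 3 h against 827 and 871 CPM in the other samples of that timepoint. Leukocyte markers summed to at most 173 CPM and platelet markers to at most 132 CPM. Krt19, Krt7, Msln and Upk3b, markers of bile duct and mesothelial cells, were at 0 in all samples, but other genes of their lists were detected. The 4 bile duct markers listed summed to at most 6.06 CPM. The 6 markers listed for portal fibroblasts and mesothelial cells summed to 79.5 and 146 CPM at 0 h. They summed to at most 1.70 CPM at 12 h and to 3.87 to 19.2 CPM at 96 h.

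Expression at 6 culture times was compared with freshly isolated HSCs to ask how the pathway's own components behaved during culture. A gene was called when its fold change exceeded 2 at an adjusted p below 0.1 (edgeR quasi-likelihood test, Benjamini-Hochberg over 15138 genes). Over the 7 timepoints together, 6 of the 10 genes differed at that adjusted p (Tgfb2, Tgfb3, Tgfbr1, Tgfbr2, Tgfbr3 and Skil), against 27.4% of all genes tested. With DESeq2 9 of the 10 differed, against 35.4% of all genes, the additional ones being Ltbp1, Smad3 and Tgfb1 (adjusted p = 0.0027, 0.074 and 0.098). At 3 h, 2 genes rose (Tgfb2 and Skil, where 4.19% of all genes rose) and none fell by edgeR or DESeq2 (1.39% of all genes fell). An unadjusted edgeR p below 0.05 in either direction was reached by 4 of the 10 genes and by 2301 of the 15138. At 6 h, 3 rose and 2 fell (6.98% and 4.35% of all genes), and at 12 h 3 rose and 3 fell (8.6% and 9.1%). At 18 h, 2 rose and 4 fell (7.64% and 8.21%), at 24 h 1 rose and 2 fell (5.65% and 3.86%), and at 96 h 2 rose and 3 fell (5.83% and 5.03%). Every gene that rose was a ligand or Skil, and every gene that fell was a receptor or Ltbp1. The median log2 fold change of the 10 genes stayed between -0.34 and 0.35 at the 6 times, beside medians of 0.00 to 0.07 over all genes tested. These 6 comparisons share the same 2 samples at 0 h. In bulk RNA, fewer cells of a type and less RNA per cell cannot be told apart.

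**Figure D1:**
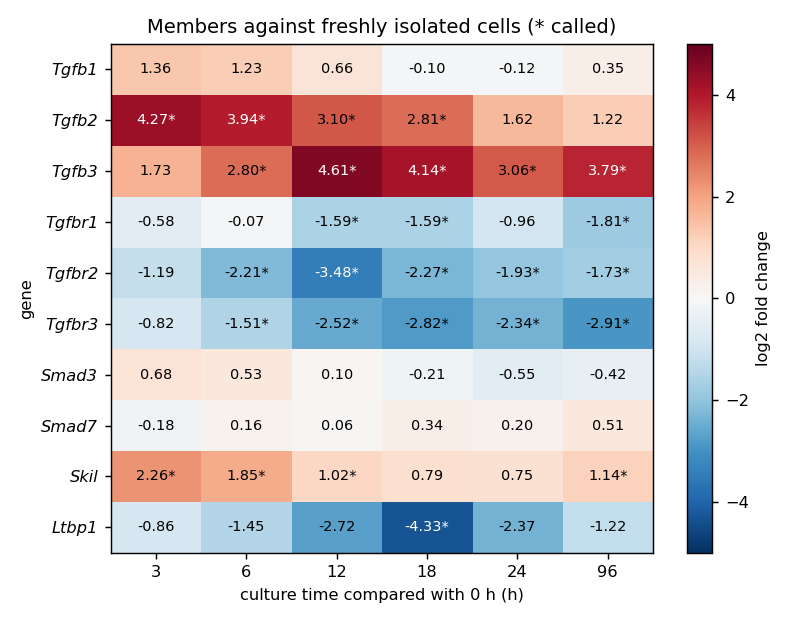
Log2 fold change of each of the 10 genes (vertical axis) at 3, 6, 12, 18, 24 and 96 h of culture (horizontal axis) against 0 h, coloured from blue (lower) to red (higher), with an asterisk where the gene was called. Tgfb2, Tgfb3 and Skil form the red lines, with 4.27 for Tgfb2 at 3 h and 4.61 for Tgfb3 at 12 h, and Tgfbr1, Tgfbr2, Tgfbr3 and Ltbp1 the blue ones.

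Of the 3 ligands, Tgfb2 rose at 3 to 18 h and Tgfb3 at 6 to 96 h, a difference in timing that was not tested, and Tgfb1, the ligand most studied in liver fibrosis, was not called against 0 h at any time. Tgfb2 lies on chromosome 1 (chr1:186622792-186705989, minus strand, GRCm38) and Tgfb1 on chromosome 7 (chr7:25687002-25705077, plus strand). The 250 bases upstream of their starts, shown because these genes belong to the same family and the first was called but not the second, were read from RefSeq (GRCm38.p6), 5′ to 3′ on the gene's strand, at chr1:186705990-186706239 and chr7:25686752-25687001. Capitals mark matches on either strand to any of 6 motifs, none of which overlapped another in these windows. They were the TATA box searched as TATAAA, the Sp1 box searched as GGGCGG, the E-box searched as CACGTG, the CAGA box of Smads searched as CAGACA, the AP-1 site searched as TGANTCA and the cyclic AMP response element searched as TGACGTCA.
Tgfb2: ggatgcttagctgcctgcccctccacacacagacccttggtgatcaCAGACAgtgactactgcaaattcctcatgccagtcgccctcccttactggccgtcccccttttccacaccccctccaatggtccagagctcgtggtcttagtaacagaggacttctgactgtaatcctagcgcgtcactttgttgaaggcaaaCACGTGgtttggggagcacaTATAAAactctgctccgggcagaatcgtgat
Tgfb1: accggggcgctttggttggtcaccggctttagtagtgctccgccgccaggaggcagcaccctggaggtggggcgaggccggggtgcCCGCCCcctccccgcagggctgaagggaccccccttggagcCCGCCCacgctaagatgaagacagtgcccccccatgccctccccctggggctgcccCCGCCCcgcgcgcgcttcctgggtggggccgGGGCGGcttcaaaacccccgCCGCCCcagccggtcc
In Tgfb2, TATAAA began 31 bases before the start, CACGTG 51 and CAGACA 204 bases before it, and 12.4%, 6.02% and 17.1% of 32851 such windows in the genome held these motifs. Tgfb1 held GGGCGG 5 times and none of the other motifs, where 32.7% of windows held GGGCGG at least once. The matches are letters in a window and not shown to be used in these cells.

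Tgfb2 was low in freshly isolated HSCs, with 8.53 and 6.03 CPM at 0 h in M2 and M3. After 3 h its level was 151, 116 and 161 CPM in M1, M2 and M3, and after 6 h 117, 80.7 and 142 CPM. It was 54.2, 65.5 and 69.7 CPM at 12 h and 14.6, 81.2 and 58.8 CPM at 18 h. All 12 samples from 3 to 18 h lay above both samples at 0 h, and the sample of M1 at 18 h was the lowest of them. At 24 h the values were 31.8 and 13.5 CPM in M1 and M2, and at 96 h they were 27.8, 5.77 and 17.9 CPM, with M2 below both samples at 0 h. The log2 fold change was 4.27 ± 0.77 (SE) at 3 h, a 19.4-fold rise (edgeR adjusted p = 0.0033), 3.94 at 6 h (adjusted p = 0.0029), 3.10 at 12 h (adjusted p = 0.0083) and 2.81 at 18 h (adjusted p = 0.016). Without the 0 h sample of M3, the rise at 18 h was no longer called (adjusted p = 0.147). The 18 h rise was also not called with only the samples of 0 h and 18 h in the fit. The differences of 1.62 at 24 h and 1.22 at 96 h did not pass (edgeR adjusted p = 0.24 and 0.32). Within M2 the log2 difference at 3 h was 3.70 and within M3 it was 4.65. At 96 h, however, it was -0.53 within M2 and 1.5 within M3.

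Tgfb3 measured 9.78 and 11 CPM at 0 h, 47.1, 36.2 and 20.5 CPM at 3 h, and 50.4, 81.3 and 85.9 CPM at 6 h. At 12 h it reached 101, 285 and 377 CPM and at 18 h 52.4, 181 and 317 CPM. M1 was the lowest of the 3 at both times, and its sinusoidal endothelial markers were the highest (617 CPM against 126 and 131 CPM at 12 h, and 472 CPM against 151 and 163 CPM at 18 h). The part of these cells in the spread of Tgfb3 was not tested. The values were 87.1 and 86.6 CPM at 24 h and 157, 141 and 133 CPM at 96 h, so that all 17 cultured samples lay above both uncultured ones. Tgfb3 was called from 6 h on, with log2 fold changes of 2.80 ± 0.67 at 6 h (edgeR adjusted p = 0.013), 4.61 ± 0.73 at 12 h (a 24.5-fold rise, adjusted p = 0.00035), 4.14 ± 0.71 at 18 h, 3.06 ± 0.71 at 24 h and 3.79 ± 0.70 at 96 h (adjusted p = 0.0021). The 3 h difference of 1.73 did not pass with edgeR (adjusted p = 0.19) and passed with DESeq2 (adjusted p = 0.076). The calls at 6 h and 24 h were lost without the 0 h sample of M2 (edgeR adjusted p = 0.136 and 0.126). Within M2 and M3 the log2 difference at 12 h was 4.81 and 5.04. Tgfb3 lies at chr12:86056745-86079041 on the minus strand, and the gene Ttll5, which overlaps it on the opposite strand, had at most 16.7 CPM in any sample.

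Tgfb1 was detected in all samples at 9.24 to 83.6 CPM and showed no called difference. Its mean was 19.1 ± 4.28 CPM at 0 h (n = 2), 49.0 ± 30.2 CPM at 3 h (n = 3), 44.8 ± 4.27 CPM at 6 h (n = 3) and 24.2 ± 13.6 CPM at 96 h (n = 3). The 3 samples at 3 h and the 3 at 6 h all lay above both samples at 0 h, whereas those at 12, 18 and 96 h fell on both sides. The 3 h mean was carried by M1, with 83.6 CPM against 27.6 and 35.9 CPM in M2 and M3. That sample was also the one with 2638 CPM of sinusoidal endothelial markers, whose part in the value was not tested. The log2 difference from 0 h was 1.36 ± 0.69 at 3 h and 1.23 ± 0.69 at 6 h (edgeR adjusted p = 0.38 and 0.31), and without single samples the 3 h value ranged from 0.76 to 1.69. A change of Tgfb1 of about this size was not detectable against 0 h at this spread.

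**Figure D2:**
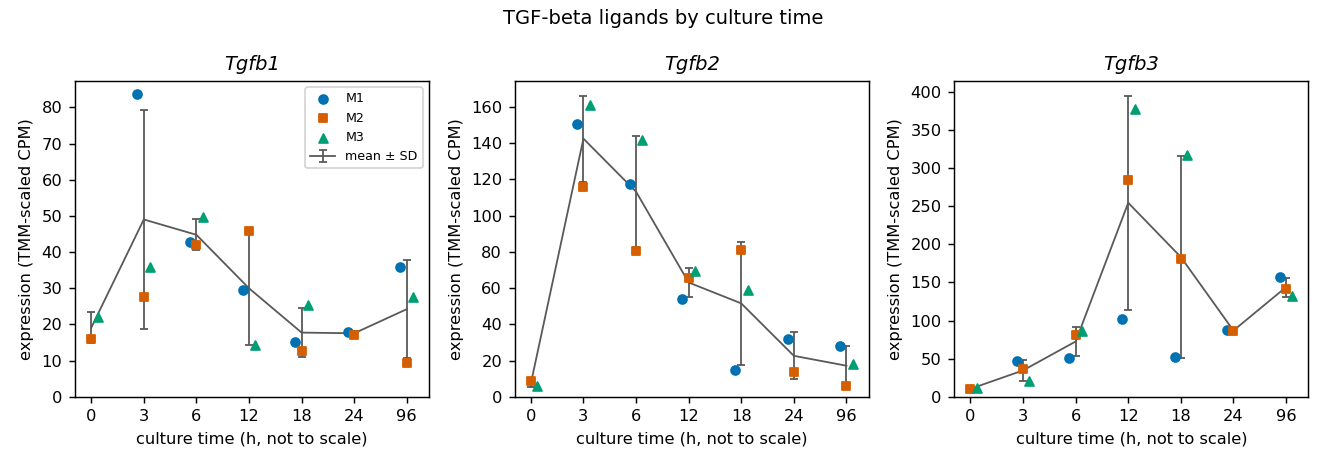
Expression (CPM, vertical axis, each panel with its own scale) of Tgfb1, Tgfb2 and Tgfb3 at each culture time (h, horizontal axis, not to scale), with a point per sample coloured by number (M1 to M3) and a line through the means with SD bars. Tgfb2 is highest at 3 h (116 to 161 CPM), Tgfb3 at 12 h (101 to 377 CPM), and Tgfb1 shows a single high point of 83.6 CPM at 3 h.

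The receptors fell in culture. Tgfbr3 and Tgfbr2 fell by 6 h and Tgfbr1 by 12 h. Tgfbr2 lies on chromosome 9 (chr9:116084293-116175360, minus strand). Its upstream window at chr9:116175364-116175613, shown beside the ligands' windows because Tgfbr2 moved in the opposite direction, held none of the 6 motifs and is therefore printed without capitals.
Tgfbr2: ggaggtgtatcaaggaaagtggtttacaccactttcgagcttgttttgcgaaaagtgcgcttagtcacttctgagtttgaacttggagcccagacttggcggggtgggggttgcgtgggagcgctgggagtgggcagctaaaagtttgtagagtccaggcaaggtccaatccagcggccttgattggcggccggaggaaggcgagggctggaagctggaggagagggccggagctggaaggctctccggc
The RefSeq table used held windows for 6 of the 10 genes, and Tgfb3, Tgfbr3, Smad7 and Skil were not among them.

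Tgfbr3, the betaglycan gene (chr5:107106570-107289629, minus strand), differed over the 7 timepoints with the smallest adjusted p of the 10 genes (edgeR, 4.4e-06). Its level was 459 and 416 CPM at 0 h, 253, 226 and 264 CPM at 3 h, and 166, 206 and 90.3 CPM at 6 h. It was 75.7, 63.3 and 89.3 CPM at 12 h, 75.1, 66.9 and 43.9 CPM at 18 h, 93.3 and 79.1 CPM at 24 h, and 65.1, 59.1 and 50.7 CPM at 96 h. All cultured samples lay below both uncultured ones, and the samples at 0 h, 3 h and 6 h did not overlap with each other. Its log2 fold change was -0.82 ± 0.30 at 3 h (edgeR adjusted p = 0.17, not called), -1.51 ± 0.30 at 6 h (adjusted p = 0.0034), -2.52 ± 0.30 at 12 h (adjusted p = 2.6e-05) and -2.91 ± 0.31 at 96 h, a 7.51-fold fall (adjusted p = 1.1e-05). These calls from 6 h on were kept in every alternative fit. Within M2 and M3 the 96 h difference was -2.95 and -3.03. The summed HSC markers had a mean of 32952 CPM at 0 h, 34530 CPM at 3 h, 20633 CPM at 6 h and 6161 CPM at 12 h, and the part of this shift in the fall of the receptors was not tested. Genes annotated inside Tgfbr3 reached at most 24.6 CPM (Gm43423, same strand) in any sample.

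Tgfbr2, the ligand-binding type II receptor, was at 141 and 148 CPM at 0 h. It measured 59.7, 41.7 and 89.1 CPM at 3 h, 35.0, 19.5 and 39.3 CPM at 6 h, and 19.9, 15.9 and 3.2 CPM at 12 h. At 18 h its values were 40.2, 28.8 and 20.9 CPM, at 24 h 30.9 and 44.7 CPM, and at 96 h 36.1, 44.5 and 50.03 CPM. Every cultured sample lay below both at 0 h. The mean was lowest at 12 h, where all 3 samples were below those of 18 h but overlapped with those of 6 h. Tgfbr2 fell, with a log2 fold change of -2.21 ± 0.58 at 6 h (edgeR adjusted p = 0.023), -3.48 ± 0.60 at 12 h (an 11.1-fold fall, adjusted p = 0.00079) and -2.27 ± 0.58 at 18 h (adjusted p = 0.016). The values of -1.93 at 24 h and -1.73 at 96 h passed narrowly (edgeR adjusted p = 0.099 and 0.080), and the 24 h value was not called with the isolation date as a covariate (adjusted p = 0.123). Leaving out single samples ended the 24 h call in 14 of 19 fits and the 96 h call in 7 of 19, and the 6 h call without the 0 h sample of M3 (adjusted p = 0.1003). The difference from 12 h to 18 h, 1.20 on the log2 scale, was not called (edgeR adjusted p = 0.56).

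Tgfbr1, the signalling type I receptor (chr4:47353222-47414931, plus strand), measured 58.4 and 48.2 CPM at 0 h, 38.5, 43.4 and 25.3 CPM at 3 h, and 32.0, 57.3 and 63.0 CPM at 6 h. From 12 h on it was lower, with 16.7, 14.8 and 21.7 CPM at 12 h, 11.5, 22.3 and 19.4 CPM at 18 h, 15.2 and 39.3 CPM at 24 h, and 12.6, 15.2 and 17.7 CPM at 96 h. The samples at 6 h overlapped with those at 0 h, while all samples from 12 h on lay below them. The log2 fold change was -0.07 at 6 h (edgeR adjusted p = 1.0), -1.59 ± 0.53 at 12 h and at 18 h (adjusted p = 0.057 and 0.062) and -1.81 ± 0.53 at 96 h (adjusted p = 0.043). The -0.96 at 24 h did not pass with edgeR (adjusted p = 0.39) and passed with DESeq2 at -1.19 (adjusted p = 0.098). The 12 h call was lost without either 0 h sample or without the 12 h sample of M1 or M2 (adjusted p up to 0.245). The 18 h call ended without either 0 h sample or the 18 h sample of M1 or M3 (adjusted p up to 0.239), and the 96 h call without either 0 h sample or the 96 h sample of M1 or M2 (adjusted p up to 0.234).

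**Figure D3:**
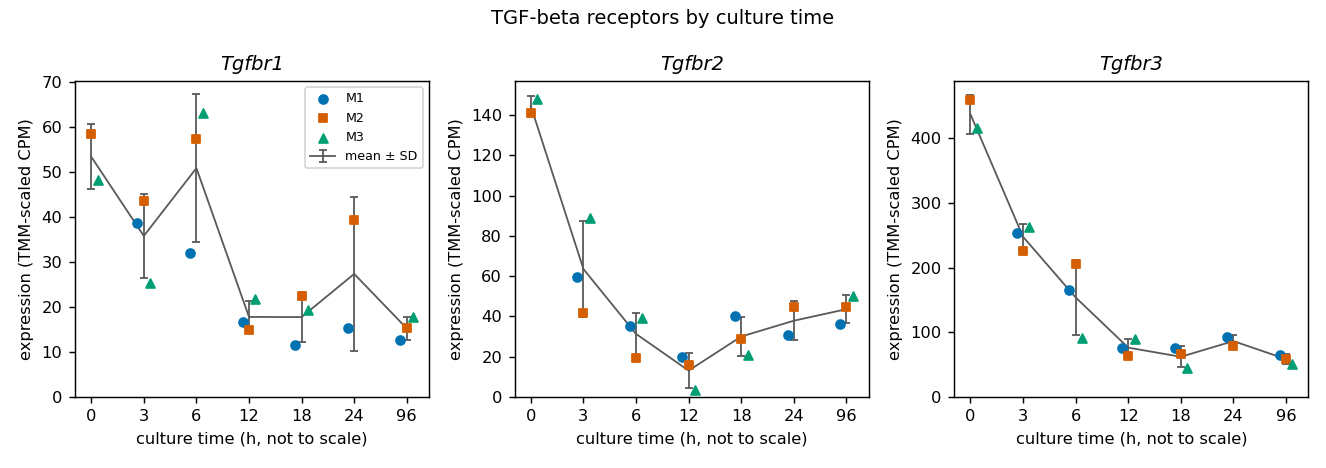
Expression (CPM, vertical axis, each panel with its own scale) of Tgfbr1, Tgfbr2 and Tgfbr3 at each culture time (h, horizontal axis, not to scale), with a point per sample coloured by number (M1 to M3) and means with SD bars. Tgfbr3 falls from 416 and 459 CPM to 50.7 to 65.1 CPM, Tgfbr2 has its lowest mean at 12 h (3.2 to 19.9 CPM), and Tgfbr1 is below both 0 h samples from 12 h on.

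Among the intracellular genes, Skil rose at 3, 6, 12 and 96 h, and Smad3 and Smad7 were not called against 0 h at any time. Skil, which encodes the Smad co-repressor SnoN (chr3:31095058-31122577, plus strand), measured 39.6 and 34.1 CPM at 0 h, 202, 150 and 180 CPM at 3 h, and 119, 136 and 146 CPM at 6 h. It was 68.3, 70.4 and 85.8 CPM at 12 h, 51.2, 53.9 and 86.4 CPM at 18 h, 54.7 and 69.2 CPM at 24 h, and 95.5, 59.1 and 89.9 CPM at 96 h. All 17 cultured samples exceeded both uncultured ones, and the 3 h samples lay above those of 6 h, which lay above all later ones. The log2 fold change was 2.26 ± 0.32 at 3 h, a 4.8-fold rise (edgeR adjusted p = 0.00037), 1.85 ± 0.31 at 6 h (adjusted p = 0.00094), 1.02 ± 0.30 at 12 h (adjusted p = 0.033) and 1.14 ± 0.30 at 96 h (adjusted p = 0.025). The 12 h and 96 h values sat at the limit of a 2-fold change. With DESeq2 they were 0.78 and 0.99 and not called, and with scaling on library size the 18 h and 24 h differences of 0.79 and 0.75 became 1.03 and 1.03 and were called. Leaving out single samples ended the 12 h call in 6 of 19 fits and the 96 h call without either 0 h sample (adjusted p up to 0.199). Within M2 and M3, the 3 h difference was 1.91 and 2.38.

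Smad7, the inhibitory Smad on chromosome 18, had a mean of 65.6 ± 26.5 CPM at 0 h (n = 2), 57.9 ± 19.8 CPM at 3 h (n = 3) and 93.3 ± 12.7 CPM at 96 h (n = 3). Its log2 difference from 0 h ranged from -0.18 ± 0.36 at 3 h to 0.51 ± 0.36 at 96 h (edgeR adjusted p = 0.92 and 0.45). At 12 h it was 0.06, and the samples of each timepoint from 3 h to 96 h overlapped with the range of 46.9 to 84.4 CPM at 0 h. Smad3, the receptor-activated Smad (chr9:63646767-63757994, minus strand), showed 35.4 and 86.4 CPM at 0 h, the widest relative gap between the 0 h samples among the 10 genes. Its mean was 97.0 ± 18.9 CPM at 3 h, 64.8 ± 9.79 CPM at 12 h and 45.4 ± 4.01 CPM at 96 h (n = 3 each), and its log2 difference ran from 0.68 ± 0.47 at 3 h to -0.55 ± 0.51 at 24 h (edgeR adjusted p = 0.54 and 0.61). Within M2 Smad3 was higher than at 0 h at all 6 times and within M3 it was lower at 4 of the 5 times measured, such as 0.96 and -1.36 at 18 h.

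Ltbp1, which encodes the binding protein of latent TGF-beta (chr17:75005568-75392512, plus strand), measured 37.1 and 34.6 CPM at 0 h, 18.2 to 22 CPM at 3 h and 11.3 to 15.5 CPM at 6 h. At 12 h it was 1.16, 3.39 and 11.6 CPM, at 18 h 0.244, 0.526 and 4.47 CPM, at 24 h 1.93 and 11.8 CPM, and at 96 h 15.2, 8.85 and 22.1 CPM. All cultured samples lay below both uncultured ones, with the lowest at 18 h, where the 3 samples held between 1 and 24 counts. Only that timepoint was called, with a log2 fold change of -4.33 ± 1.24 (edgeR adjusted p = 0.029). The -2.72 at 12 h did not pass (edgeR adjusted p = 0.14) and passed with DESeq2 (-2.96, adjusted p = 0.019), as did -2.37 at 24 h (-2.61 with DESeq2, adjusted p = 0.097). With only the samples of 0 h and 18 h in the fit, the 18 h call was lost (edgeR adjusted p = 0.124). At 96 h the difference was -1.22 ± 1.14 (edgeR adjusted p = 0.60).

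**Figure D4:**
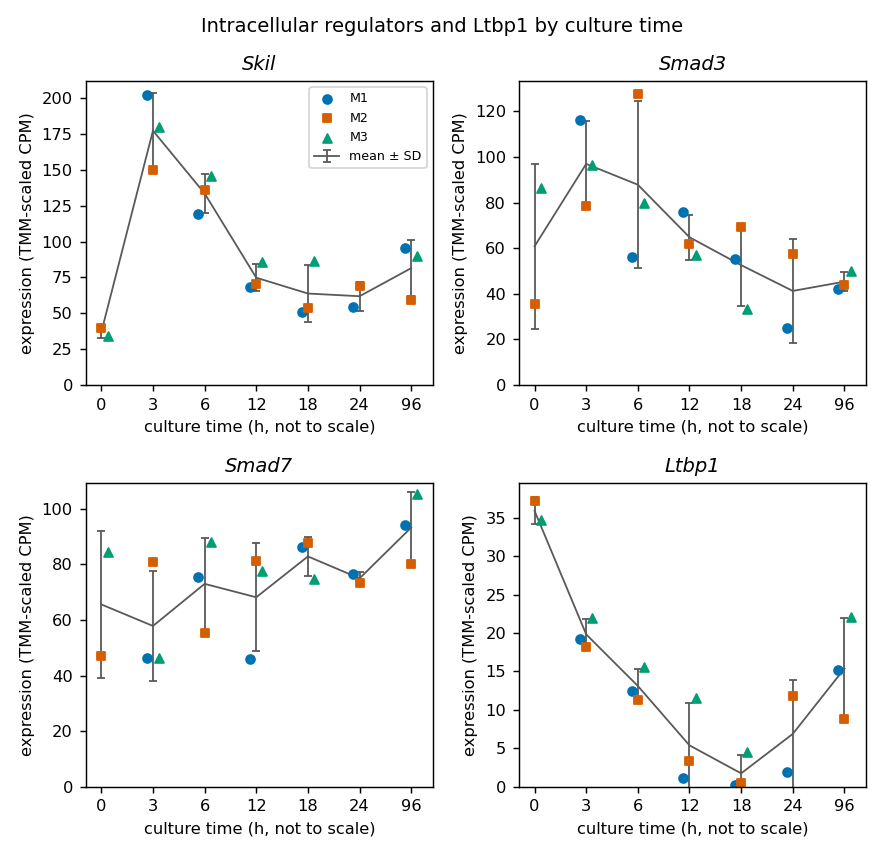
Expression (CPM, vertical axis, each panel with its own scale) of Skil, Smad3, Smad7 and Ltbp1 at each culture time (h, horizontal axis, not to scale), with a point per sample coloured by number (M1 to M3) and means with SD bars, which are drawn only above 0. Skil stands at 150 to 202 CPM at 3 h against 34.1 and 39.6 CPM at 0 h, Ltbp1 is lowest at 18 h (0.244 to 4.47 CPM), and the points of Smad3 and Smad7 at 0 h span most of the later ones.

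Between neighbouring timepoints the same fit was used to ask when each step occurred. From 3 h to 6 h none of the 10 genes was called by edgeR or DESeq2. Of all genes 4.49% were called in either direction. An unadjusted edgeR p below 0.05 was reached by 1 of the 10 genes and by 2412 of the 15138 tested. From 6 h to 12 h 5 of the 10 genes, and 1926 of the 15138 tested, had an unadjusted edgeR p below 0.05. Over this step Tgfbr3 fell by 1.01 ± 0.27 on the log2 scale (edgeR adjusted p = 0.088, where 1.84% of all genes were called in either direction). This call was lost with the isolation date as a covariate (-1.01, adjusted p = 0.111) and in 15 of the 19 fits that left out a single sample. Over the same step Tgfb3 differed by 1.81 ± 0.53, Tgfbr1 by -1.52 ± 0.49, Tgfbr2 by -1.27 ± 0.53 and Skil by -0.84 ± 0.26, none of them called (edgeR adjusted p = 0.13 to 0.33). From 12 h to 18 h, 18 h to 24 h and 24 h to 96 h none of the 10 genes was called by either tool. Of all genes, 0.225%, 0.0396% and 2.72% were called. An unadjusted edgeR p below 0.05 was reached by 1, 0 and 0 of the 10 genes. Of the 15138 tested, 1301, 1027 and 1690 reached it.

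In the order of their mean levels, most neighbouring timepoints of a gene overlapped in their samples. Those that did not were 0 h and 3 h in Tgfbr2, Tgfbr3 and Ltbp1, 3 h and 6 h in Tgfbr3, Tgfb3 and Skil, 6 h and 12 h in Tgfb2, and 12 h and 18 h in Tgfbr2. In Tgfb3 the order 96 h, 24 h, 6 h, 3 h and 0 h ran without overlap. Its 12 h and 18 h samples overlapped with each other and with those of 96 h, and those of 18 h also with 24 h and 6 h. In Skil the 6 h samples did not overlap with those of 96 h, nor those of 24 h with 0 h. Smad3, Smad7, Tgfb1 and Tgfbr1 had no such gap. How often such gaps occur among all genes tested was not counted. Nor was it counted how often all cultured samples of a gene lay above, or all below, both uncultured ones. Groups this small, ordered by their own means, can lie apart without a change between them. The gaps are therefore a description of the samples and not evidence of steps in these genes.

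The other genes of the pathway were taken from lists arranged by role, and their changes at 3, 12 and 96 h are set beside those of the 10 genes. For every list, the shares of all genes tested that rose and fell were 4.19% and 1.39% at 3 h. They were 8.6% and 9.1% at 12 h and 5.83% and 5.03% at 96 h. The medians over all genes tested were 0.00 at 3 h and 12 h and 0.07 at 96 h. Lists this short can differ from these shares by a gene or more without meaning. Of 14 measured genes that hold or release latent TGF-beta, 2 rose at 3 h (Bgn by 1.20 and Ltbp4 by 1.06, edgeR adjusted p = 0.0023 and 0.071). Of the same 14, 2 rose and 7 fell at 12 h (8.6% and 9.1% of all genes), and their median was -1.09 on the log2 scale. Thbs1, whose product thrombospondin 1 releases ligand from the latent complex, rose from 31.9 ± 11.7 to 446 ± 257 CPM (log2 fold change 3.80, edgeR adjusted p = 8.0e-05). Dcn (decorin), Bgn (biglycan) and Emilin1, whose matrix proteins bind TGF-beta or its precursor, fell (log2 fold changes -2.41, -1.45 and -4.50, adjusted p = 1.4e-07, 8.0e-05 and 0.00030). Dcn is also one of the HSC markers above. At 96 h 2 rose and 3 fell (5.83% and 5.03% of all genes), with a median of -0.78. Thbs1 stayed higher than at 0 h (2.58, edgeR adjusted p = 0.0022), Lrrc32, which encodes the surface anchor GARP of latent TGF-beta, rose by 2.00 (adjusted p = 0.00037), and Dcn and Ltbp4 fell (-3.31 and -5.67, adjusted p = 4.4e-09 and 3.3e-08). Itgb8, a subunit of a latent TGF-beta receptor named after its values were seen, was at 15.9 CPM at 0 h and at 0 in every sample from 12 h on, at least 29.8-fold lower at 12 h when set against 3 counts per library.

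Of the 5 measured receptors and co-receptors outside the 10 genes, none was called at 3 h. At 12 h none rose and 2 fell (8.6% and 9.1% of all genes), with a median of -1.36. These were Eng (endoglin), which went from 267 ± 40.2 CPM to 84.3 ± 6.04 CPM (edgeR adjusted p = 0.0027), and Bambi, a decoy receptor, which went from 180 ± 62.8 CPM to 26.5 ± 22.6 CPM (adjusted p = 0.093). At 96 h none of the 5 was called by edgeR or DESeq2, and Eng was back at 332 ± 38.3 CPM. None of the 5 had an unadjusted edgeR p below 0.05, beside 3219 of the 15138 genes tested. Bambi and Eng thus fell with the 3 receptors at 12 h, and only the 3 receptors were still called at 96 h, a difference that was not tested.

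Of 12 measured Smads and their modifiers, 3 rose at 3 h, Tgif1 by 4.82, Nedd4l by 1.54 and Smad4, the partner of the activated Smads, by 1.46 (edgeR adjusted p = 0.0075, 0.0074 and 0.040). Of the same 12, 4 rose and 2 fell at 12 h (8.6% and 9.1% of all genes). The median was 1.10, or 0.95 with Ldlrad4, which was at 0 in both uncultured samples, at its bound. Nedd4l and Smurf2, ubiquitin ligases that act on Smads and receptors, rose by 2.27 and 1.83 (edgeR adjusted p = 0.00012 and 0.0014), and Tgif1, a Smad co-repressor, rose by 4.8 (adjusted p = 0.0029). Ski, the closest relative of Skil, fell by 1.57 (adjusted p = 0.0012), from 257 ± 12.5 to 86.4 ± 23.7 CPM, while Skil was 2.03-fold higher at this time. At 96 h only Tgif1 rose (2.76, edgeR adjusted p = 0.073) and only Ski fell (-1.70, adjusted p = 0.00092), where 5.83% and 5.03% of all genes did.

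Of 10 measured genes known as targets of the pathway, 2 rose and 5 fell at 12 h (8.6% and 9.1% of all genes, median -1.30). At 96 h 5 rose and 3 fell (5.83% and 5.03% of all genes, median 1.31). Ccn2, a fast target that encodes CTGF, rose at 12 h by 6.04 on the log2 scale (edgeR adjusted p = 1.7e-06), from 249 ± 190 CPM to 16304 ± 4202 CPM, and was at 1352 ± 535 CPM at 96 h. The collagen genes Col3a1 and Col1a2 fell at 12 h (-3.48 and -3.35, adjusted p = 6.5e-06 and 1.2e-05), as did Tgfbi, named for its induction by TGF-beta (-3.41, adjusted p = 3.9e-05). At 96 h Acta2, the smooth muscle actin gene, rose by 5.07 (edgeR adjusted p = 1.1e-05), whereas Tgfbi fell by 8.20 (adjusted p = 6.0e-08). Fn1, the fibronectin gene, and Col3a1 were also lower at 96 h (-2.47 and -2.06, adjusted p = 0.00078 and 0.0010). At 3 h no target gene was called by edgeR, and 2 had an unadjusted p below 0.05, beside 2301 of the 15138 genes tested. DESeq2 called 1 higher and 1 lower at 3 h, beside the edgeR rise of 4.27 of Tgfb2 and 2.26 of Skil.

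**Figure D5:**
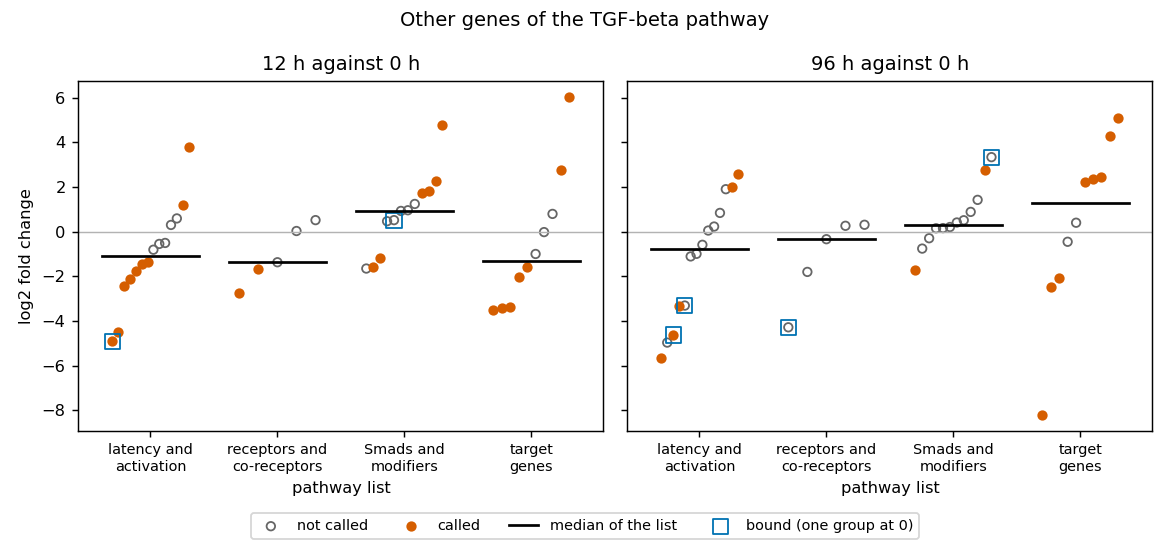
Log2 fold change (vertical axis) of each measured gene of the lists of other pathway genes at 12 h (left) and 96 h (right) against 0 h, grouped by list on the horizontal axis, with filled points for called genes, open points for the others, a bar at the list's median, and squares around genes at 0 in one group, drawn at their bound against 3 counts per library. The target genes have a median of -1.30 at 12 h and 1.31 at 96 h, with Tgfbi at -8.20 as the lowest point.

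The genes whose course over the 19 samples was most like that of each member were named by the smallest root mean square difference of centred log2 CPM among the 6725 genes that averaged 20 CPM or more. For Tgfb2 these were Arid5b (0.72 log2 units), Osmr (0.74) and Akap2 (0.79), against a root mean square of 1.53 of Tgfb2 around its own mean. For Tgfb3 they were Gsto1 (0.64), Actn1 (0.68) and Tagln (0.72), against 1.44. Skil was closest to Pip5k1a (0.32), B4galt1 (0.40) and Fbxo30 (0.41), against 0.71, and Tgfbr3 to Eif4e3 (0.39), Gm13339 (0.44) and Srsf5 (0.44), against 1.02. Tgfbr2 was closest to Cast (0.45, against 1.15) and Tgfbr1 to Tanc1 (0.44, against 0.77). The nearest genes were Trim56 for Tgfb1 (0.51, against 0.77), Trip12 for Smad3 (0.34, against 0.59) and Efr3a for Smad7 (0.29, against 0.37). The points share libraries and depth, and Ltbp1, with a mean of 13.3 CPM, was not matched.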

How the data were processed

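The authors deposited raw counts per Ensembl gene for 19 HSC samples, as whole numbers without normalization. Per the labels, libraries were made with the QuantSeq 3′ mRNA kit FWD, so that a read marks a transcript's 3′ end, and the submitters' processing notes name STAR, StringTie and mm10. The counting tool, its strand setting and the annotation release are not given in the sources used here, and reads of overlapping genes may therefore be shared. Groups came from the culture time in the labels, the numbers M1, M2 and M3 from the titles, and the 2 isolation dates from the descriptions.

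Computations used edgeR 4.0.16 and DESeq2 1.42.0 under R 4.3.3, and Python 3.11.15. The 15138 genes that filterByExpr kept were scaled by TMM and entered edgeR's quasi-likelihood F test in 1 fit of all 19 samples without covariates (common biological coefficient of variation 1.06). P-values were adjusted by Benjamini-Hochberg over all genes tested in a comparison. The SE is the log2 fold change divided by the root of its F. Log2 CPM used a prior count of 2. The 10 genes, the pathway and marker lists and the rule for naming genes (per list, up to 4 called genes with the smallest adjusted p) were chosen with earlier results of these data known. The lists were compared by counts only. A gene of the target list is not reported here and was left out of its counts and medians. The paper's other samples were not analysed here.

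The alternatives were scaling on library size, DESeq2, no filter on low counts, the number M1 to M3 as a replicate block, the isolation date as a covariate, only the 2 groups compared, another threshold, and each sample left out. The test was checked on simulated data of 14160 genes with 100 genes changed by each of 2 folds, drawn from genes with a mean above 20 CPM. For 12 h against 0 h it called 44 of the genes changed 4-fold and 75 of those changed 16-fold with the right sign, with 3 false calls. For 96 h against 0 h these numbers were 45 and 75, with 6 false calls.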

Additional observations from a re-analysis of the deposited data

How the results depend on the processing

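Log2 fold changes of the 10 genes that were called or at least 0.5 in size (49, of which 28 were called) were recomputed in 25 alternative fits each. Of the 1225 values 1 changed direction: Smad3 at 24 h, -0.55, became 0.23 without the 0 h sample of M3 and ranged down to -1.27 over the fits without single samples. Of the 28 calls, 15 were kept in every fit and 13 were lost in at least 1, and the cause was not tested. With scaling on library size the median over all genes tested was 0.24 at 24 h and 0.22 at 96 h, and with DESeq2 it was -0.13 at 6 h and -0.15 at 12 h.

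The number of members called moved by over 1.5 times as follows. At 18 h against 0 h, the fit of the 2 groups only called 1 higher and 2 lower, in place of 2 and 4. At 24 h, scaling on library size called 2 higher in place of 1. At 24 h, 1 was lower in place of 2 with library size, no filter, the replicate block, the isolation date or an adjusted p below 0.05, and 4 with DESeq2. At 96 h, DESeq2 called 1 higher in place of 2, and no filter left 1 lower in place of 3. From 6 h to 12 h, DESeq2 called 1 higher in place of 0 and 2 lower in place of 1, and 0 were lower with library size, no filter, the replicate block, the isolation date, 2 groups only or an adjusted p below 0.05. Among the lists, the genes of latency called higher at 12 h were 1 in place of 2 with DESeq2, the co-receptors called lower at 12 h were 1 in place of 2 with library size or the replicate block, and the Smads called higher at 96 h were 2 in place of 1 with library size. The replicate block changed no other count of the 10 genes, and no other count of the lists at 12 h and 96 h, by that much. At 3 h the block and scaling on library size each called 1 target gene lower in place of 0. DESeq2 called 1 of the Smads and modifiers lower at 3 h in place of 0.

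The samples share a number, and the labels do not show that the numbers pair them. Residuals were slightly more alike within a number than between numbers, a difference that was not tested. The residuals of samples with the same number correlated by 0.014 on average (-0.072 to 0.082, 51 pairs), against -0.007 over 103 other pairs, and 13 of 19 samples correlated best with their own number. With the replicate block 7 of the 10 genes differed over the 7 timepoints in place of 6, where 24.2% of all genes tested differed. Without the filter on low counts Tgfbr1 no longer differed (edgeR adjusted p = 0.154), where 16.7% of all genes tested differed.

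Without single samples, the members called lower at 6 h numbered 1 to 2, and those higher at 18 h 1 to 2. At 24 h 0 to 1 were higher and 1 to 2 lower, and at 96 h 1 to 2 were higher and 1 to 3 lower. From 3 h to 6 h 0 to 1 were lower, and from 6 h to 12 h 0 to 1 were higher and 0 to 1 lower. With 2 samples at 0 h and at 24 h, these comparisons rest on few libraries, and leaving out 1 leaves a lone sample that is assumed to vary like the other groups. Of genes changed 4-fold in the simulated 12 h comparison, all with a mean above 20 CPM, 44 of 100 were called. Changes of this size in such genes are therefore often missed at this depth and spread. Changes in lower genes such as Ltbp1 were not simulated.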
